A study of Mus musculus with 10 samples.

Results

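Avp and Oxt encode the 2 hormones of the magnocellular neurons of the hypothalamus, vasopressin and oxytocin. Both were chosen by name, and each was represented by 1 probe set of the Clariom S Mouse array, on which one labelled sample is hybridised to short oligonucleotides; the pair are 2 of the 19505 genes compared. Male mice of the inbred strain C57BL/6J were sampled at 24 weeks of age (Young, 5 arrays) and at 138 weeks (Old, 5 arrays). Mice of both ages had free access to food and water under a light-dark cycle, per the labels; no treatment, transgene or other allele is named in them, and neither the time of day of collection nor whether each array stands for a separate animal is given in the sources used here. The p-values therefore rest on the spread between samples, whose technical share is unknown. Because the hypothalamus was measured as bulk tissue, fewer cells of a type and less RNA per cell cannot be told apart.

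Vasopressin and oxytocin are short peptides, each cut from a larger precursor that also holds a neurophysin, the carrier protein with which the hormone is packed into secretory granules. Magnocellular neurons of the supraoptic and paraventricular nuclei send both hormones down their axons to the posterior pituitary, from which vasopressin acts on the kidney to retain water and oxytocin acts on the uterus and mammary gland. Avp is also transcribed in other hypothalamic neurons, among them those of the suprachiasmatic nucleus, the circadian pacemaker, and smaller paraventricular cells that act on the anterior pituitary.

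The genes are next to each other on mouse chromosome 2 and are read from opposite strands. Their promoters are shown because transcription of the pair is set by separate start sites within a short stretch of genome. Each window runs from 250 bases before to 50 bases after the start site in RefSeq (GRCm38.p6), 5' to 3' in the direction of the gene: chr2:130582539-130582838, minus strand, for Avp, and chr2:130575919-130576218, plus strand, for Oxt. Capitals mark every match, on either strand, to the motifs named below.
Avp: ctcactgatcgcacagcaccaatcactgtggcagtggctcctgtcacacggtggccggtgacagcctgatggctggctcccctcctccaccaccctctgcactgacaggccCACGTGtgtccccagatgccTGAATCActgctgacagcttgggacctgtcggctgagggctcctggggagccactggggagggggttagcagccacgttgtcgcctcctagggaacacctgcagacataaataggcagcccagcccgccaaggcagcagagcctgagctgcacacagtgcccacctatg
Oxt: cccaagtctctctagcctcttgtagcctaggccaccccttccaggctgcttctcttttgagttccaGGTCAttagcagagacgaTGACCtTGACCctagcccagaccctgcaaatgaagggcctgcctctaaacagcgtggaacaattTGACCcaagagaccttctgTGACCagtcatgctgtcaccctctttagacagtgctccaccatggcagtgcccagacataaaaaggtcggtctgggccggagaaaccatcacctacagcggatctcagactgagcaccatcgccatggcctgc
The Avp window held 1 E-box (CACGTG, the motif bound by CLOCK and BMAL1, factors of the circadian clock), beginning 139 bases before the start site, and 1 AP-1 site (TGANTCA, the motif of Fos and Jun dimers), beginning 119 bases before it. The Oxt window held 5 copies of the nuclear receptor motif TGACC, 4 on the strand shown and 1 on the other; 2 of them lie 160 and 166 bases before the start site, separated by a single base. Neither window held TGACG or the full cAMP response element TGACGTCA, which contains it. Of 32851 RefSeq promoter windows of this length, 7.15% held CACGTG, 7.81% TGANTCA, 40.5% TGACC, 20.8% TGACG and 1.79% TGACGTCA. These matches describe letters only, and nothing in the array values measures binding at them.

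The deposited values allowed an age comparison for Avp but not for Oxt. For 19118 of the 19505 genes (98.0%) the deposited values have a population SD of 1e-05 log2 (within 1%) over the 10 arrays. The table then holds a level for them but cannot show the size of a difference. Whether this comes from the authors' processing or from the export of the table is not known, so levels and counts here describe the deposited table. Oxt was close to that floor, with an SD of 2.0e-05, and 361 genes had a larger SD. Its level was 9.49 log2 on all 10 arrays, with a range of 6.2e-05 from lowest to highest array, and the groups overlapped. Oxt is therefore given as a level only, and nothing is said here about whether age changed it. Avp, with an SD of 0.36, was among the 276 genes with an SD of at least 0.01, called varying here. Of the 3 genes on each side of the pair in RefSeq order, 3 of 6 were measured (Ptpra at 9.21, Mrps26 at 7.79 and Lzts3 at 7.62 log2), and 0 of these varied.

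**Figure D1:**
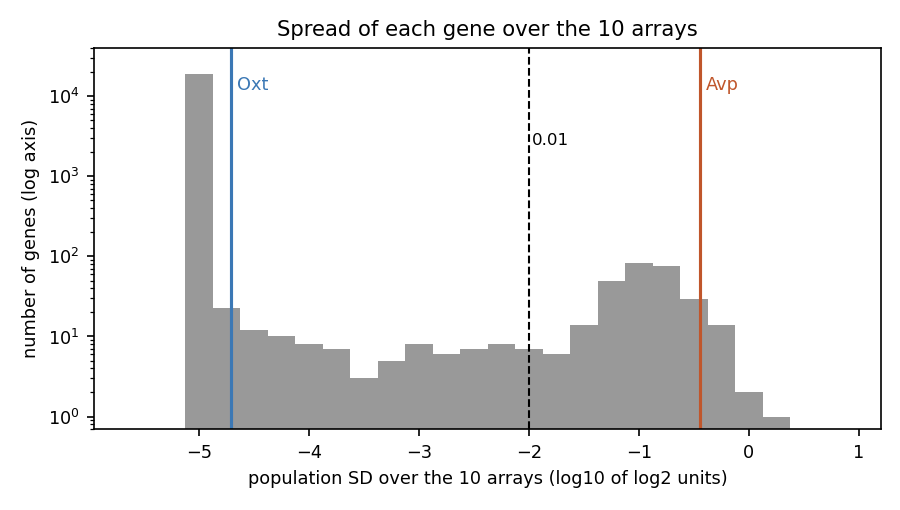
Number of genes (log axis) by population SD over the 10 arrays (log10 of the SD in log2 units), with vertical lines at Avp and Oxt and a dashed line at the SD of 0.01 that defines varying genes. Avp, at 0.36, lies in the upper group of 276 genes, and Oxt, at 2.0e-05, lies beside the peak of 19118 genes at 1e-05.

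Avp transcript was higher in the Old hypothalamus. In Young mice it measured 8.92, 8.82, 9.12, 9.28 and 9.15 log2 in samples 1 to 5, and in Old mice 9.86, 9.96, 9.55, 9.62 and 9.38. Every Old sample exceeded every Young sample, with a gap of 0.10 log2 between the lowest Old sample (Old 5) and the highest Young sample (Young 4). The mean went from 9.06 ± 0.19 to 9.68 ± 0.23 (SD, n = 5), a difference of 0.62 (SE 0.13; 95% interval 0.33 to 0.90), or 1.53-fold (1.26 to 1.87). Set against the Young mean, single Old samples stood at 1.25-fold (Old 5) to 1.87-fold (Old 2) and single Young samples at 0.846-fold (Young 2) to 1.17-fold (Young 4). The Old samples thus covered a range of 0.58 log2 and the Young samples one of 0.47, each wide beside the gap between the groups.

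**Figure D2:**
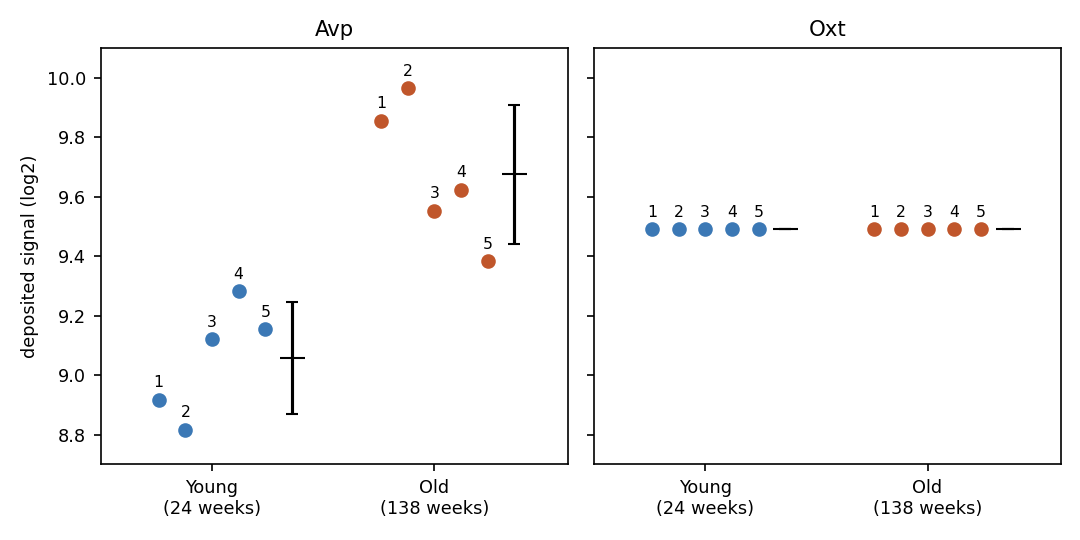
Deposited log2 signal of Avp and Oxt in each array, by age; points are arrays with their sample number, and the dash and bar beside each group are its mean and SD (n = 5). For Avp all 5 Old arrays sit above the highest Young array, whereas the 10 Oxt values are drawn at one height, 9.49.

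How firmly this difference was called depended on the genes fitted with it. With limma over all 19505 genes Avp did not pass (unadjusted p = 0.000855, Benjamini-Hochberg adjusted p = 0.182), where 0.19% of genes were called higher in Old. When limma was fitted to the 276 varying genes only, it passed (adjusted p = 0.00353), where 24.6% were called higher. These genes were chosen by a spread that includes the age difference. In the limma fit to all genes 143 of the 276 had an unadjusted p under 0.05. A pass among them, in this fit or its alternatives, is therefore not independent of that choice. Among varying genes, 20.7% had 5 Old values above all 5 Young values, as Avp did, against 0.836% of all genes. A 2-sided exact permutation test of the difference in means gave p = 0.00794, the smallest value that relabelling 5 against 5 arrays can give. Over the alternatives to the limma fit to all genes the adjusted p ranged from 0.00353 to 0.609, and besides the varying genes it passed with quantile normalization (0.0106), which called 0.79% of all genes higher and 33.1% lower. Among the varying genes it ranged from 0.0022 to 0.0336 over 15 alternatives, and Avp passed in each of them.

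The size of the difference changed little with the arrays used. It ran from 0.55 log2 (without Old 2) to 0.69 (without Old 5) when arrays were left out in turn, and it was 0.67 without Young 3 and Young 5 together, the samples highest for the liver gene Mup2 (Young 3, 7.35 log2) and the choroid plexus gene Ttr (Young 5, 12.44 log2). Among varying genes the rise of Avp ranked 12th in size. Its spread within an age group was also large: the pooled SD of 0.21 log2 ranked 35th of 276, where the median varying gene had 0.094. Of the 37 genes called higher over all genes, 28 had a smaller difference than Avp. The 37 include genes that did not vary, such as C1qc (difference 0.0059, limma adjusted p = 0.0289). This count therefore does not rank the size of the Avp rise.

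Among the other hypothalamic peptides with usable values, none differed with age as much as Avp. Of the 16 listed, 14 were measured and 5 varied; over all genes 0 of the 14 were called. Npy, the appetite-stimulating neuropeptide Y, measured 7.65, 7.73, 7.70, 7.74 and 7.86 log2 in Young and 8.06, 8.16, 7.85, 7.83 and 7.77 in Old. Its groups overlapped, with Old 1 and Old 2, the samples highest for Avp, standing above the rest (difference 0.20, SE 0.078, adjusted p = 0.688 with limma over all genes). Sst, which encodes the growth hormone release inhibitor somatostatin, was lower by a difference of -0.16 (SE 0.045, limma adjusted p = 0.465 over all genes, and 0.0272 among varying genes; 0.0573 to 0.0624 among them without Young 1, Young 3 or Old 5). Pmch and Hcrt, peptides of lateral hypothalamic neurons that promote feeding, differed by 0.07 and -0.09, and Trh, the releasing hormone of the thyroid axis, by -0.04.

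The difference between these changes and that of Avp was tested within arrays, as the Avp value minus the peptide's value on the same array. The change of Avp exceeded that of Npy by 0.42 log2, that of Pmch by 0.55, that of Trh by 0.66, that of Hcrt by 0.71 and that of Sst by 0.78. For each of the 5 peptides this quantity was higher in all 5 Old samples than in every Young sample (2-sided exact permutation p = 0.00794, the smallest the design allows, and 0.00794 after adjustment over the 5 comparisons). These peptides come from other neurons of the same tissue, and the comparison was chosen with the value of Avp known. All 5 tests use the same Avp values, and Avp alone already separated the ages. They therefore largely repeat the test of Avp, and the adjustment adds no independent support.

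**Figure D3:**
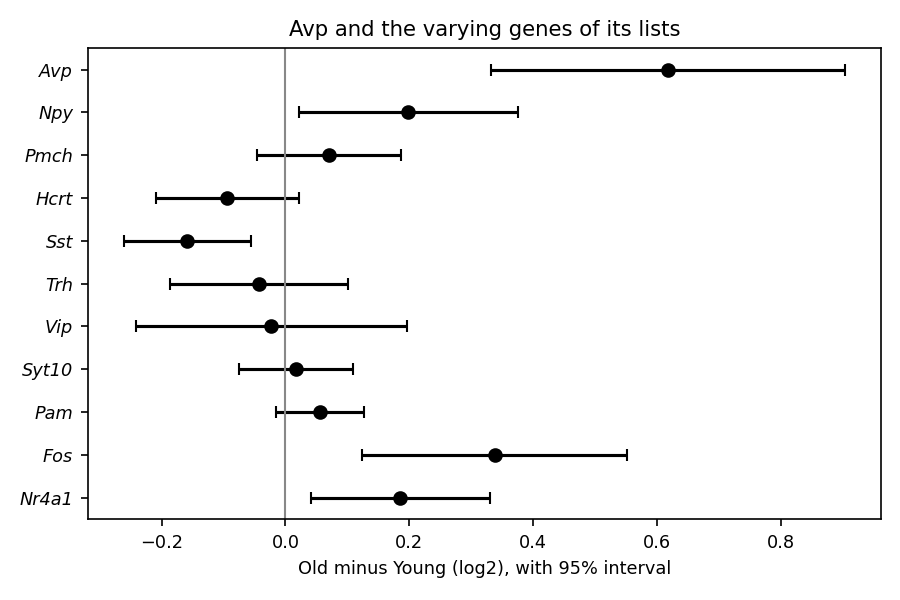
Old minus Young difference (log2) of Avp and of the 10 varying genes of the pathway lists, with the 95% interval from limma over all genes (n = 5 per age). Avp, at 0.62, lies farthest to the right, Fos (0.34) and Npy (0.20) follow, and Sst (-0.16) is farthest to the left.

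Genes listed around vasopressin and oxytocin (the pathway lists) were mostly held at fixed levels. The lists include 16 other hypothalamic peptides and 19 genes of the suprachiasmatic nucleus and the clock. Of 96 genes listed by role, 89 were measured, 10 varied and 0 were called by limma over all genes. In that fit 13 of the 89 had an unadjusted p under 0.05, against 1331 of the 19505 genes. Split by spread, these were 4 of the 10 varying genes, against 143 of all 276. Of the 79 that did not vary they were 9, against 1188 of all 19229. The median difference of the 89 was -7.5e-08 log2, as against -8.7e-08 over all genes tested, and it is near 0 because 79 of the 89 did not vary. Among the varying genes, where 24.6% were called higher and 11.2% lower, 2 of these (Fos and Nr4a1) rose and 1 (Sst) fell; without Young 1, or without Young 3, only the call of Fos held. Of the 4 receptors and 1 degrading enzyme listed, the receptors were measured, at a level only: Avpr1a, the vascular and brain receptor of vasopressin, at 6.44 log2, Avpr1b, that of pituitary corticotrophs, at 5.81, Avpr2, that of the kidney, at 6.01, and Oxtr, the oxytocin receptor, at 6.56. No detection call was used, so these levels do not show that a receptor was expressed.

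Of 14 measured genes that cut, amidate or store peptide hormones, only Pam varied. Pam encodes the enzyme that amidates the C-terminus of both hormones. It ran from 10.24 to 10.35 log2 in Young (median 10.29) and from 10.26 to 10.43 in Old (median 10.37), and the groups overlapped (difference 0.06, SE 0.031, adjusted p = 0.816 with limma over all genes). The convertase gene Pcsk1, the carboxypeptidase gene Cpe and the granule genes Chga and Scg2 were held at 7.68, 10.42, 9.34 and 11.27 log2.

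Of the 12 transcription factors and regulators of magnocellular neurons, Fos and Nr4a1, immediate early genes induced by neuronal activity, varied. Fos measured 8.13, 8.04, 7.88, 8.19 and 8.25 log2 in Young and 8.38, 8.24, 8.38, 8.71 and 8.46 in Old; Old 2 lay just under Young 5, and the other 4 Old samples lay above every Young sample. Its difference was 0.34 (SE 0.095), with an adjusted p of 0.453 with limma over all genes and of 0.0202 when varying genes only were fitted. Nr4a1 measured 7.49, 7.51, 7.48, 7.60 and 7.55 in Young and 7.70, 7.51, 7.76, 7.91 and 7.67 in Old, where Old 2 lay within the Young range. Its difference was 0.19 (SE 0.064; limma adjusted p = 0.637 over all genes, and 0.0479 among varying genes). Old 2, the highest sample for Avp, was thus the lowest Old sample for both, and Old 4, the highest for both, was the third for Avp. In the varying genes alone the call of Fos held in all 15 alternatives, while that of Nr4a1 was lost in 9 of 10 fits without a single array, all but that without Old 2 (adjusted p 0.0571 to 0.0964).

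The factors that specify these neurons were at a level only. Sim1, Otp, Pou3f2 and Arnt2, needed for the formation of magnocellular neurons, were at 7.53, 7.13, 6.995 and 9.53 log2. Creb3l1, a regulator of Avp transcription, was at 6.70, Caprin2, which binds Avp mRNA, at 6.83 and Rasd1 at 7.10. Creb1, a transcription factor of cAMP signalling, was at 7.57, Nr3c1, the glucocorticoid receptor, at 7.35 and Jun at 7.94.

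Markers of the other sites and controls of Avp gave little to compare. Of 19 genes of the suprachiasmatic nucleus and the clock, Vip and Syt10 varied. Vip, a peptide of suprachiasmatic neurons, differed by -0.02 log2 (SE 0.097) and Syt10 by 0.02 (SE 0.041), less than the spread between samples. The mean of Vip, 6.48 log2, lay below every array median (6.78 log2), and no detection call was used. All 13 measured genes co-expressed with the hormones, such as Pdyn and Gal, all 10 of osmotic sensing and the 3 measured sex steroid receptors did not vary.

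Likeness to Avp was measured as Pearson's r with the other 275 varying genes, as a description without a test. The arrays share their tissue and normalization, and a gene that differs with age will resemble Avp for that reason, so r was computed over the 10 log2 values and again over deviations from the age means. Over the 10 arrays the 5 most alike were Serpina3n (0.94), Abcb1a (0.93), Bbs9 (0.92), Lyz2 (0.92) and B2m (0.91), with Spearman's rho from 0.90 to 0.94; without Old 1 and Old 2, the samples farthest from the Avp median, r was 0.85 to 0.94. Over the deviations they were Tubb4b (0.84), Abcb1a (0.83), Nnat (0.81), Serpina3n (0.81) and Npy (0.799), where the median varying gene had -0.03. Serpina3n and Abcb1a were on both lists. Of the 275 genes, 37 had an r of at least 0.8 over the 10 arrays and 4 over the deviations.

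Serpina3n, a protease inhibitor of reactive astrocytes, measured 8.02, 7.73, 8.02, 8.15 and 8.01 log2 in Young and 8.86, 8.92, 8.64, 8.88 and 8.68 in Old. Young 2 was lowest and Young 4 highest of the Young samples, and Old 2 was highest of all, as for Avp. Abcb1a, the P-glycoprotein drug efflux pump of brain endothelium, measured 8.09, 8.13, 8.13, 8.17 and 8.21 in Young and 8.43, 8.46, 8.21, 8.32 and 8.23 in Old, with Old 1 and Old 2 highest, again as for Avp. Tubb4b, a beta tubulin, followed the deviations of Avp but differed with age in the other direction (-0.13, SE 0.034), so that its r over the 10 values was -0.41.

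**Figure D4:**
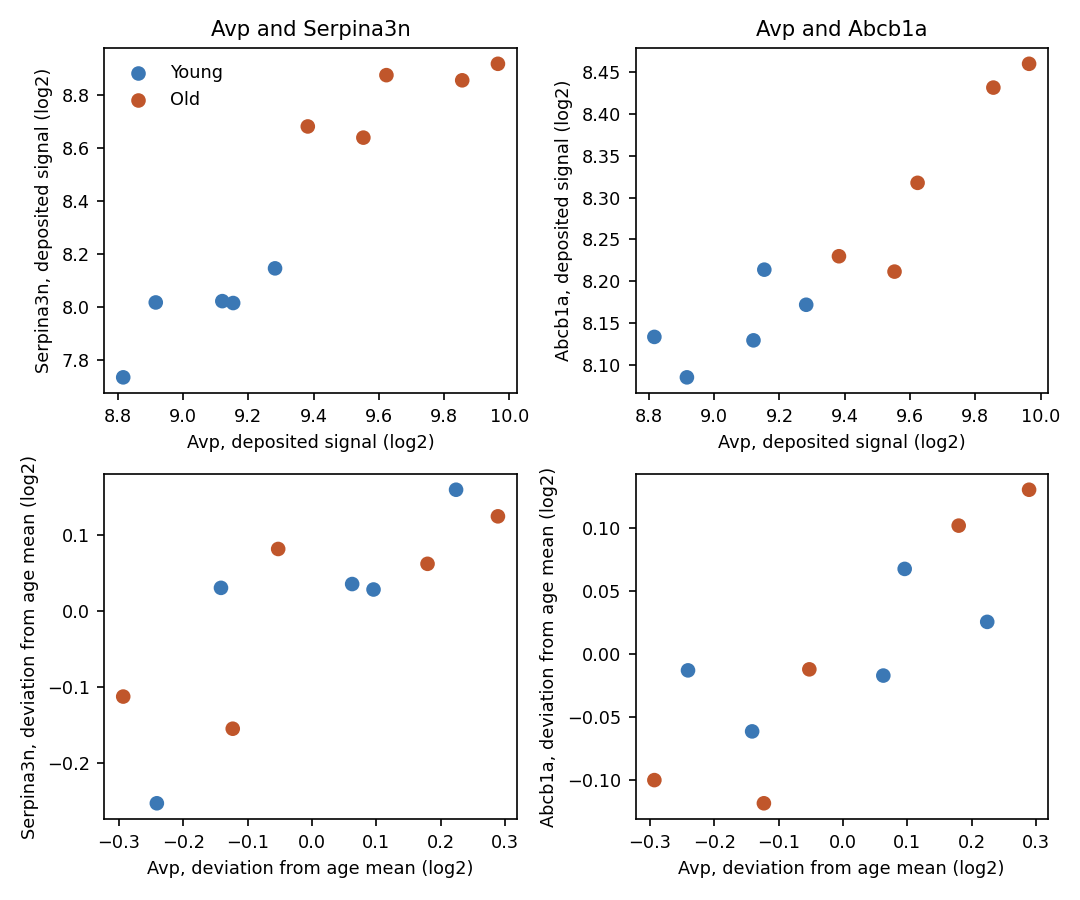
Avp against Serpina3n (left) and Abcb1a (right) in each array (blue Young, orange Old; n = 5 each), as deposited log2 signal (top) and as deviation from the mean of the age group (bottom). The top panels give r of 0.94 and 0.93 and the bottom panels, with the age difference removed, 0.81 and 0.83.

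Markers of the labelled tissue and of other cells and regions were set beside the Avp result. Of 15 measured hypothalamic markers, Pmch (10.36 log2), Hcrt (9.03), Trh (8.57), Hdc (8.23) and Fezf1 (8.15) varied. Of those that did not vary, Nkx2-1 (6.23), Pomc (6.32) and Lhx9 (6.16) lay below every array median (6.78 log2). The others ran from 6.89 (Rax) to 7.68 (Six3). The summed linear signal of the 15 was 3863 to 4303 in Young and 3887 to 4260 in Old. For 9 microglial markers (2 varying, C1qa and C1qb) it was 1697 to 1737 in Young and 1776 to 1885 in Old, without overlap. Its part in the Avp result was not tested. C1qa differed by 0.34 log2 (SE 0.056) and C1qb by 0.29 (SE 0.048), each without overlap, as did 20.7% of varying genes that were higher in Old. The other 7 markers did not vary, so the sum cannot show a difference in microglial content. For 10 astrocyte markers (4 varying, Gfap, Slc1a2, Gja1 and Aldoc) the summed signal was 8642 to 8842 and 8785 to 9067, and its part was not tested either. Within that sum 2 varying genes differed in opposite directions: Gfap, the astrocyte intermediate filament, differed by 0.44 log2 (SE 0.065), its lowest Old value of 9.25 lying above its highest Young value of 9.13, and Gja1, a gap junction protein of astrocytes, differed by -0.14 (SE 0.043) with overlap. With limma Gfap passed over all genes (adjusted p = 0.0396; 0.094 to 0.142 without Young 1, Young 2, Young 3, Young 4, Old 1, Old 2, Old 3 or Old 4), and Gja1 passed among varying genes (adjusted p = 0.0353) but not over all (0.525). The call of Gfap was also lost with the Slc6a3 covariate (0.0545), the striatum covariate (0.0821) and a trended robust prior (0.0946). It was lost too without moderation (0.107) and with the replicate block (0.467). Gja1 passed over all genes with quantile normalization (0.0303), which called 33.9% of all genes. For 9 oligodendrocyte markers (5 varying) the sum was 8122 to 8970 in Young and 8340 to 8807 in Old, and its part was not tested. Among them Cldn11 differed by -0.24 log2 (SE 0.055) without overlap (limma adjusted p = 0.264 over all genes, 0.00828 among varying genes). Mal differed by -0.05, and Ermn, Mobp and Mbp by 0.14, 0.10 and 0.08, all with overlap and none called. The 10 neuronal markers did not vary, so their sum (12731 on each array) cannot show a difference in neuronal content.

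Markers of neighbouring regions overlapped between the ages. The summed signal of 8 striatal markers was 2738 to 3240 in Young and 2686 to 3288 in Old, and with the mean of the 4 varying ones as a covariate the Avp difference was 0.59 (SE 0.11). With Slc6a3, the dopamine transporter gene, as a covariate it was 0.61 (SE 0.13). The sum of 10 thalamic markers (1 varying, Tcf7l2) was 4214 to 4546 in Young and 4178 to 4432 in Old. That of 7 anterior pituitary markers (1 varying, Gh, at a mean of 6.08 log2) was 499 to 524 and 496 to 504. The overlap of each of these sums therefore rests on 1 gene, and the other markers cannot show a difference. Choroid plexus markers (7 of 9 varying) summed to 7380 in Young 5 and to at most 1039 in every Old array, and liver markers to 6048 in Young 5, through Ttr, which is on both lists; without Young 5 the Avp difference was 0.64. No marker is at 0 on this scale, where the lowest deposited value is 5.00 log2.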

How the data were processed

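The authors deposited 1 value per probe set and array, read here as log2 signal from the range (5.00 to 12.97); the base is not named in the file, and each fold rests on that reading. How the authors corrected, normalized and summarised the signal is not stated in the labels. No detection call was used, and precision is limited by the number of arrays.

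Of 22206 probe sets, 19572 had 1 gene symbol in the platform annotation; the brightest per gene was kept. Old was compared with Young with limma 3.58.1 (R 4.3.3, lmFit and eBayes, 2-sided, Benjamini-Hochberg, threshold 0.05). The fit to varying genes, chosen by a spread that includes the age difference, is an alternative. Permutation tests were enumerated in Python 3.11.15. The procedure was tested on simulated data. Members, lists, rules and alternatives were chosen with earlier results of these data known.

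Named genes are Avp, Oxt, varying list members (the 4 largest differences where over 4 varied), receptors, magnocellular factors, flanking genes, and the 5 genes most like Avp by each measure. Of the varying striatal, choroid plexus and liver markers, however, only Ttr and Mup2 are named. Exceptions, named after their values were seen, are the fifth peptide, the fifth hypothalamic marker, the fifth oligodendrocyte marker, the non-varying hypothalamic markers and C1qc. Pcsk1, Cpe, the granule genes, Pdyn and Gal are also exceptions of this kind. Slc6a3 was fixed as a covariate. The main fit did not pair the ages by sample number. Of 5 same-numbered pairs, 2 had a correlation of deviations over 0.1. Slc6a3, however, was higher in samples 1 to 3 than in samples 4 and 5 at both ages. It measured 8.30, 8.42, 8.51, 7.04 and 6.91 log2 in Young and 8.68, 8.90, 8.26, 7.22 and 6.65 in Old. The source of this shared order was not tested.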

Additional observations from a re-analysis of the deposited data

Results flagged for a closer look

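For Avp, the 10 varying genes of the pathway lists and the genes most like Avp (18 genes, 36 groups), the lowest and highest array of each group were compared with the nearest other value. In 1 group an array stood far from the rest, where chance gives about 1 in 20 groups: Vip was at 6.75 log2 in Old 4, and the next Old array had 6.43. Neither age group of Avp had such an array.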

How the results depend on the processing

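Avp kept its direction in every fit made, at 0.55 to 0.69 log2 with arrays left out in turn (adjusted p 0.136 to 0.376 over all genes; 0.0022 to 0.0109 in the varying genes). It crossed the threshold in the varying genes alone (0.62, adjusted p = 0.00353) and with quantile normalization (0.62, 0.0106). The replicate block gave 0.609 (adjusted p) over all genes and 0.0336 among varying ones, and moved the counts of genes from 37 higher and 6 lower to 10 and 1; 1 of 5 Young samples (Young 5) correlated best with its own number. The counts were 68 and 31 in the varying genes, 154 and 6464 with quantile normalization, 22 and 2 without Young 3 and Young 5, and 25 to 37 and 4 to 9 with single arrays left out. A trended robust prior gave 10 lower. Pathway genes called were 3 in the varying genes and 30 with quantile normalization, against 0; those 30 are 33.7% of the 89 measured, where that normalization called 33.9% of all genes; in the varying genes 1 was called without Young 3 and Young 5, without Young 1 or without Young 3, namely Fos. Small differences changed sign: Trh was at 0.016 without Young 3 and Young 5, Vip ran from -0.094 to 0.023 with single arrays left out, and Syt10 from -0.0064 to 0.050. The call of Sst in the varying genes was lost without Young 1, Young 3 or Old 5 (adjusted p 0.0573 to 0.0624), without both Young 3 and Young 5 (0.0727) and with the replicate block (0.086), and that of Nr4a1, beside the fits in the report, with the striatum covariate (0.0518) and without both Young 3 and Young 5 (0.128). Oxt, at a level only, gives no difference whose stability could be judged, and it does not enter the fit to varying genes. The causes of these changes were not tested.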
